A study of Mus musculus with 2 samples.

Results

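The 57 Sox, Tbx, Pax, Gata, Lhx and Nkx genes examined here encode transcription factors that direct cells into the lineages of the embryo. They were picked by name, 17 Sox, 10 Tbx, 9 Pax, 5 Gata, 8 Lhx and 8 Nkx genes out of 21938 protein-coding genes of the GENCODE M21 annotation, and the rule used no measured value. Each locus ran from 5 kb upstream of the gene start to the gene end, and the 57 loci, which lie on 18 chromosomes and none on chromosome X, held 12025 of the 1782730 CpG cytosines in the deposited table. DNA methylation was measured by reduced representation bisulfite sequencing (RRBS), which reads CpG-rich fragments of the genome after bisulfite conversion and gives the percentage of reads in which a cytosine was methylated. The cells were female Xmas mouse embryonic stem cells (mESCs) of the C57/Bl6 strain, in which GFP and mCherry reporters driven by the Hprt promoter mark different X chromosomes. They were grown by the modified culture method, for 7 passages according to the labels (the study's text gives a higher number), and sorted by FACS into XX cells, which carry both reporters, and XO cells, which have lost an X chromosome. There was 1 XX and 1 XO library, each from sorted cells of the Xmas line. Without replicates there is no replicate error, no test and no p-value for any difference below, and a difference between the karyotypes cannot be told apart from one between these libraries. The ± values are SDs over the cytosines of a region and describe how uneven that region was. Read depth was not part of the table, so the depth behind each percentage is unknown.

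Each family is named after its DNA-binding domain, the sequence it binds or a founding member. SOX proteins bind through an HMG box, TBX proteins through a T-box and PAX proteins through a paired domain, GATA factors carry zinc fingers that read the sequence GATA, LHX proteins join LIM domains to a homeodomain, and NKX proteins are homeodomain factors. Most of these genes are held off in pluripotent cells. Many of their promoters lie in CpG islands, dense clusters of CpGs that are usually free of DNA methylation, and in mESCs such islands are often occupied by Polycomb complexes and bear activating and repressive histone marks together, the state called bivalent. CpGs between islands, by contrast, are the ones that DNA methyltransferases usually methylate. Whether the genes were silent or bivalent in these cells cannot be read from RRBS, since neither expression nor chromatin was measured in these libraries.

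Windows of the genome at 4 of the promoters show the range of patterns met below. All are GRCm38 sequence, 150 bases each, written 5′ to 3′ along the gene, with the CpGs that have a listed value in capitals and all other bases in lower case. The Sox15 window (chr11:69655579-69655728, forward strand, 265 to 414 bp past the gene start, coding exon) comes from the promoter with the largest difference, and its 9 listed cytosines averaged 60.7% ± 10.5 in XX and 85% ± 18.2 in XO. The Tbx21 window (chr11:97114932-97115081, reverse strand, 250 to 399 bp past the start, coding exon) is from the promoter with the lowest mean of both libraries among those with at least 50 listed cytosines, where 33 cytosines averaged 1.31% ± 2.14 and 0.781% ± 1.77. The Sox12 window (chr2:152398169-152398318, reverse strand, upstream of the start) holds the longest stretch of any promoter that was lower in XX. All 16 listed cytosines of the window averaged 7.05% ± 5.46 in XX and 36.1% ± 20.1 in XO. The Sox11 window (chr12:27341568-27341717, reverse strand, 857 to 1006 bp past the start, coding exon) holds the longest stretch that was higher in XX. All 13 listed cytosines of that window averaged 45.2% ± 11.4 in XX and 11.9% ± 5.42 in XO.
Sox15: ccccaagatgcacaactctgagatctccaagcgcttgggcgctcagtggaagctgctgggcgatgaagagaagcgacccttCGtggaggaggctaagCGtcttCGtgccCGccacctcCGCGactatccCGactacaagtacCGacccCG
Tbx21: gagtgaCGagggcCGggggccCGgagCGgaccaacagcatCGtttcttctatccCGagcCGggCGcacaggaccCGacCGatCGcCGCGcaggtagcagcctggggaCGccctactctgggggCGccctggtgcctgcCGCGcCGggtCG
Sox12: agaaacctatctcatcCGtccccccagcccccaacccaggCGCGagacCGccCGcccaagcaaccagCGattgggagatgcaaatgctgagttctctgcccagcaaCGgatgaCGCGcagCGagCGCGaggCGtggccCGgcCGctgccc
Sox11: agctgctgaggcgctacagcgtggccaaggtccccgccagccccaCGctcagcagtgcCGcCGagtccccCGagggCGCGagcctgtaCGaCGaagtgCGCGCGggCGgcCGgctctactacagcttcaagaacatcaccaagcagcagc

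The loci were rich in CpG islands. An island, as called from the sequence, lay within 1 kb of the gene start at 38 of the 57 genes (66.7%), against 53.6% of all protein-coding genes, and the median locus held 1461 bp of island against 406 bp. The window of 1 kb either side of the start held a median of 92 CpGs in the reference, from 11 at Pax4 to 231 at Sox12, against 61 over all genes. The widest island stretches were at Gata2, a haematopoietic factor (4928 bp), Tbx2, a transcriptional repressor in heart and limb development (3865 bp in 7 islands), Pax7, a factor of muscle satellite cells (3534 bp), Pax2, which acts in kidney and eye (3332 bp), and Lhx4, a pituitary and motor neuron factor (3164 bp). No island was called at Tbx19 or Pax4. Over their loci the 5 genes with the widest islands averaged 14.3%, 7.85%, 12.4%, 11.5% and 10.5% in XX and 17%, 9.79%, 16.6%, 15.7% and 14.3% in XO.

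Over the 12025 cytosines of the loci, methylation averaged 11.7% (XX) and 15.7% (XO), against 17.6% and 25.8% over all rows of the table. Single cytosines were at least 20 points lower in XX at 12.6% of the positions and at least 20 points higher at 3.84%, against 22.5% and 3.68% over all rows. Single positions were noisy. At the 3397 CpGs of the loci with a value on both strands, which should be methylated alike, the median absolute difference between strands was 2.86 points in XX and 3.94 points in XO, with SDs of 10.2 and 12.3 points. Neighbouring cytosines were also not independent measures, since of the pairs on the same strand within 20 bp of each other, and not both at 0%, 36.6% had an identical value in XX and 36.8% in XO. The loci are therefore described by regions with at least 5 listed cytosines, namely the promoter (1 kb either side of the gene start), the gene body (from 1 kb past the start to the gene end) and the upstream stretch (5 kb to 1 kb before the start). By this count 50 promoters, 54 gene bodies and 35 upstream stretches were measured, every gene had at least 1 measured region, and 31 genes had all 3.

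**Figure D1:**
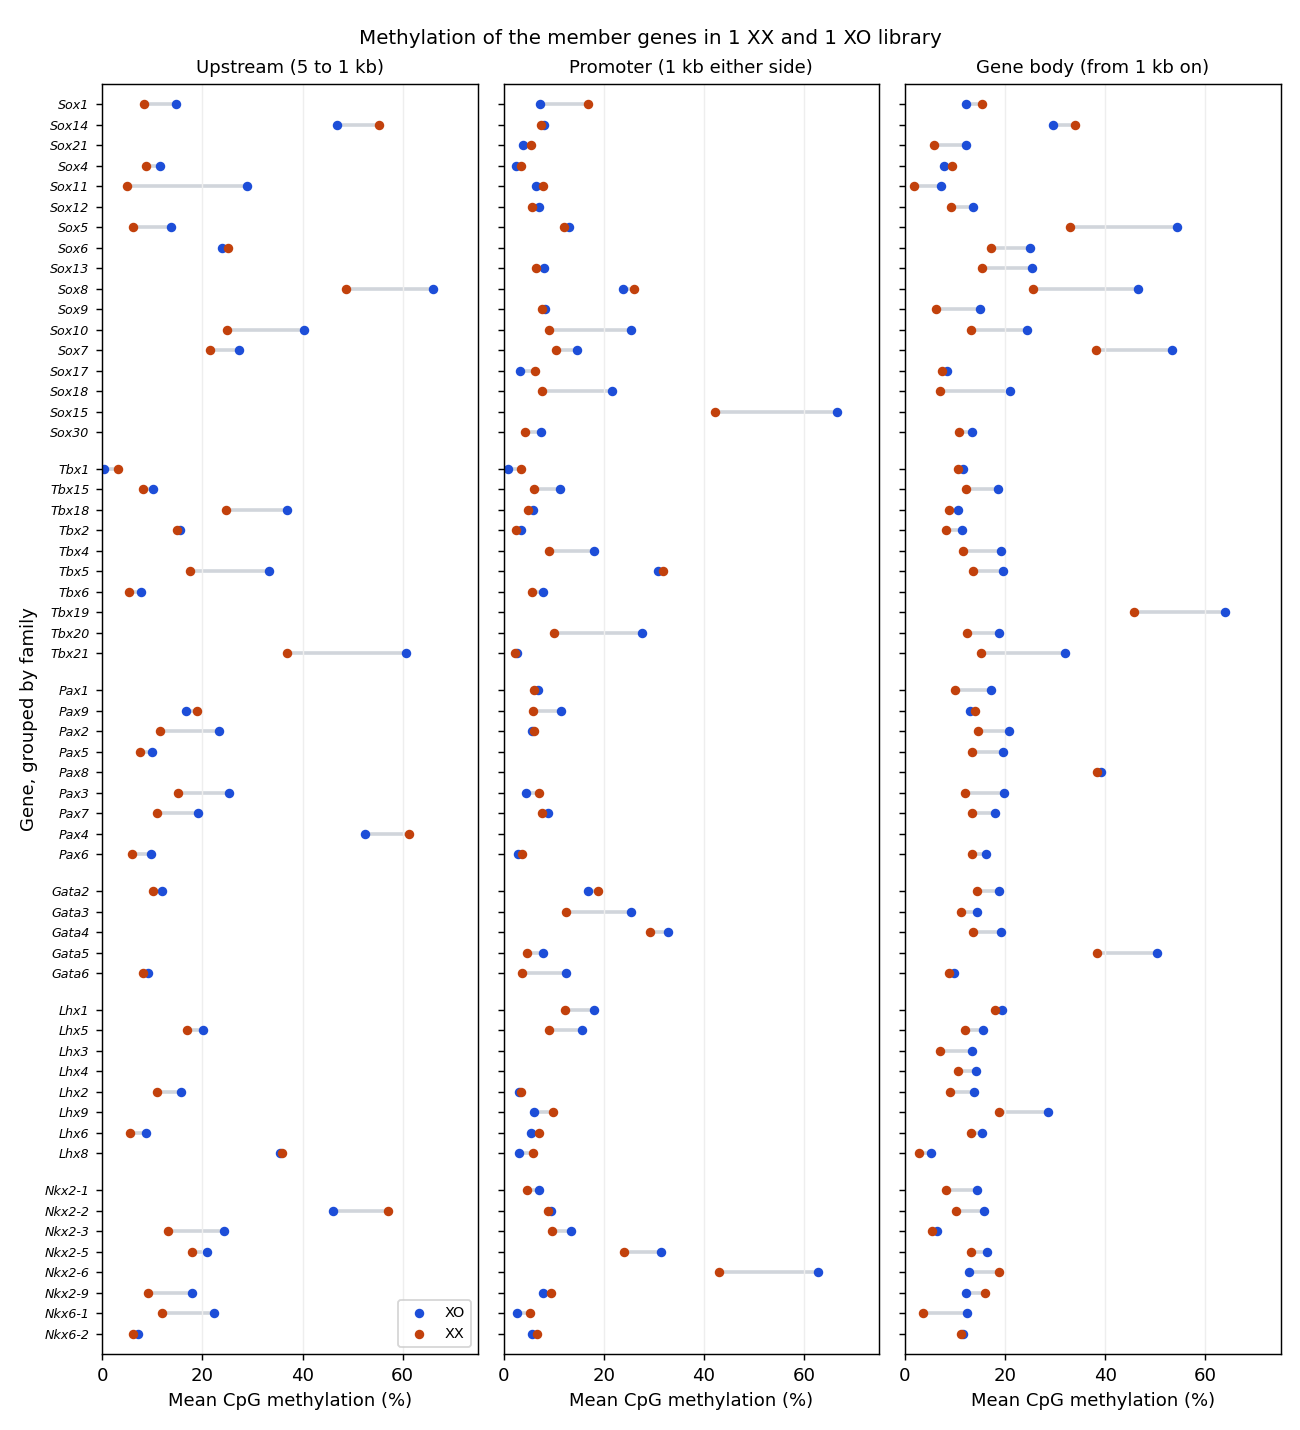
Mean CpG methylation (%, horizontal axis) of each gene's upstream stretch, promoter and gene body in the XX (orange) and XO (blue) library, with 1 row per gene and a grey line joining both values; genes are grouped by family and regions with fewer than 5 listed cytosines are blank. Most promoters lie below 20% in both libraries, Sox15 and Nkx2-6 are the highest promoters, and orange lies left of blue at 48 of 54 gene bodies.

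Promoters were lowly methylated in both libraries, and they differed little. The median over 50 promoters was 7.28% in XX and 8.02% in XO, with a median difference (XX minus XO) of -0.97 points. Of the 50, 29 (58%) were below 10% in both libraries, where 52.1% of all measured promoters were. XX was the lower library at 31 promoters (62%, against 65.2% of all measured promoters) and the higher at 19. Across all 13478 measured protein-coding promoters the medians were 7.31% and 8.64%, and the median difference was -1.28 points. At these 50 promoters the sign of so small a median depended on the strand that was read, being -1.09 points from forward-strand cytosines and 0.447 points from reverse-strand ones. Of the 45 promoters with at least 5 cytosines on each strand, 19 had a difference of the same sign on both, and the strands' differences lay a median of 5.64 points apart. In all, 6 of the 50 promoters (12%) were at least 10 points lower in XX, where 9.7% of all measured promoters were. None was at least 10 points higher, where 1.71% of all were.

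The 6 promoters past 10 points came from 4 families. Sox15 (ENSMUSG00000041287.5, chr11:69655314-69656727, forward strand) encodes the only group G SOX protein and is known for roles in placenta and muscle progenitors. Its promoter had 42.2% ± 26.9 in XX and 66.7% ± 37.1 in XO over 16 cytosines, a difference of -24.4 points. XX was the lower library at all 16 of them, on both strands. The Sox15 cytosines that stood at 80 to 100% in XO lay between -126 and 395 bp of the start, where 10 neighbouring cytosines averaged 56.3% ± 12.4 in XX and 91.4% ± 6.05 in XO, while 4 further upstream were at or below 10.98% in both libraries. Nkx2-6 (ENSMUSG00000044186.10, chr14:69171802-69175518, forward strand), a homeobox gene of the pharyngeal arches and heart outflow tract, had 43% ± 10.6 in XX and 62.8% ± 14.2 in XO over 7 cytosines, a difference of -19.8 points, with XX lower at 6 of 7. Both genes were already unusual among the 50 in level, as the most methylated pair of promoters in either library.

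The other 4 promoters were at intermediate levels in XO. Tbx20 (ENSMUSG00000031965.15, chr9:24718138-24774303, reverse strand), a T-box gene of the developing heart, had 10.01% ± 17.6 in XX and 27.6% ± 23.8 in XO over 15 cytosines, a difference of -17.6 points. Within 500 bp of the start, however, its difference was -2.85 points, so the difference lay in the outer part of the window. Sox10 (ENSMUSG00000033006.10, chr15:79154908-79165240, reverse strand), a neural crest and glial factor, had 8.99% ± 8.95 in XX and 25.4% ± 17.1 in XO over 20 cytosines, a difference of -16.4 points, and XX was lower at 19 of the 20. Sox18 (ENSMUSG00000046470.5, chr2:181669836-181671640, reverse strand), a factor of blood and lymph vessel endothelium, had 7.68% ± 9.51 in XX and 21.7% ± 24.7 in XO over 31 cytosines, a difference of -14 points. The whole Sox18 difference came from 22 forward-strand cytosines (-19.8 points), as 9 reverse-strand ones averaged the same in both libraries. Gata3 (ENSMUSG00000015619.10, chr2:9857078-9890034, reverse strand), which directs T cell and trophoblast fates, had 12.4% ± 10.9 in XX and 25.5% ± 24.6 in XO over 14 cytosines, a difference of -13 points, but its median over cytosines differed by only -0.922 points. Just under the threshold were Tbx4, a hindlimb factor (-9.0 points), and Gata6, a factor of primitive endoderm (-8.85 points).

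In the opposite direction the largest promoter difference was at Sox1 (ENSMUSG00000096014.1, chr8:12395295-12400126, forward strand), an early neural plate factor, with 16.8% ± 28.8 in XX and 7.28% ± 13.2 in XO over 22 cytosines, a difference of 9.54 points. All of it was on the forward strand (18.9 points over 11 cytosines, against 0.161 points over 11 on the reverse strand), and it came from a group of cytosines in the 5′ untranslated region, where 4 neighbours averaged 66.7% in XX and 34.1% in XO. The next in size were Lhx9, a factor of gonad and limb (3.75 points over 15 cytosines), and Sox17, the endoderm and haematopoietic SOX factor (3.10 points over 29). At Sox1, 12 of the 22 promoter cytosines were at 0% in both libraries. Its mean thus joined many empty positions to a few high neighbours, as the plot of single cytosines shows.

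**Figure D2:**
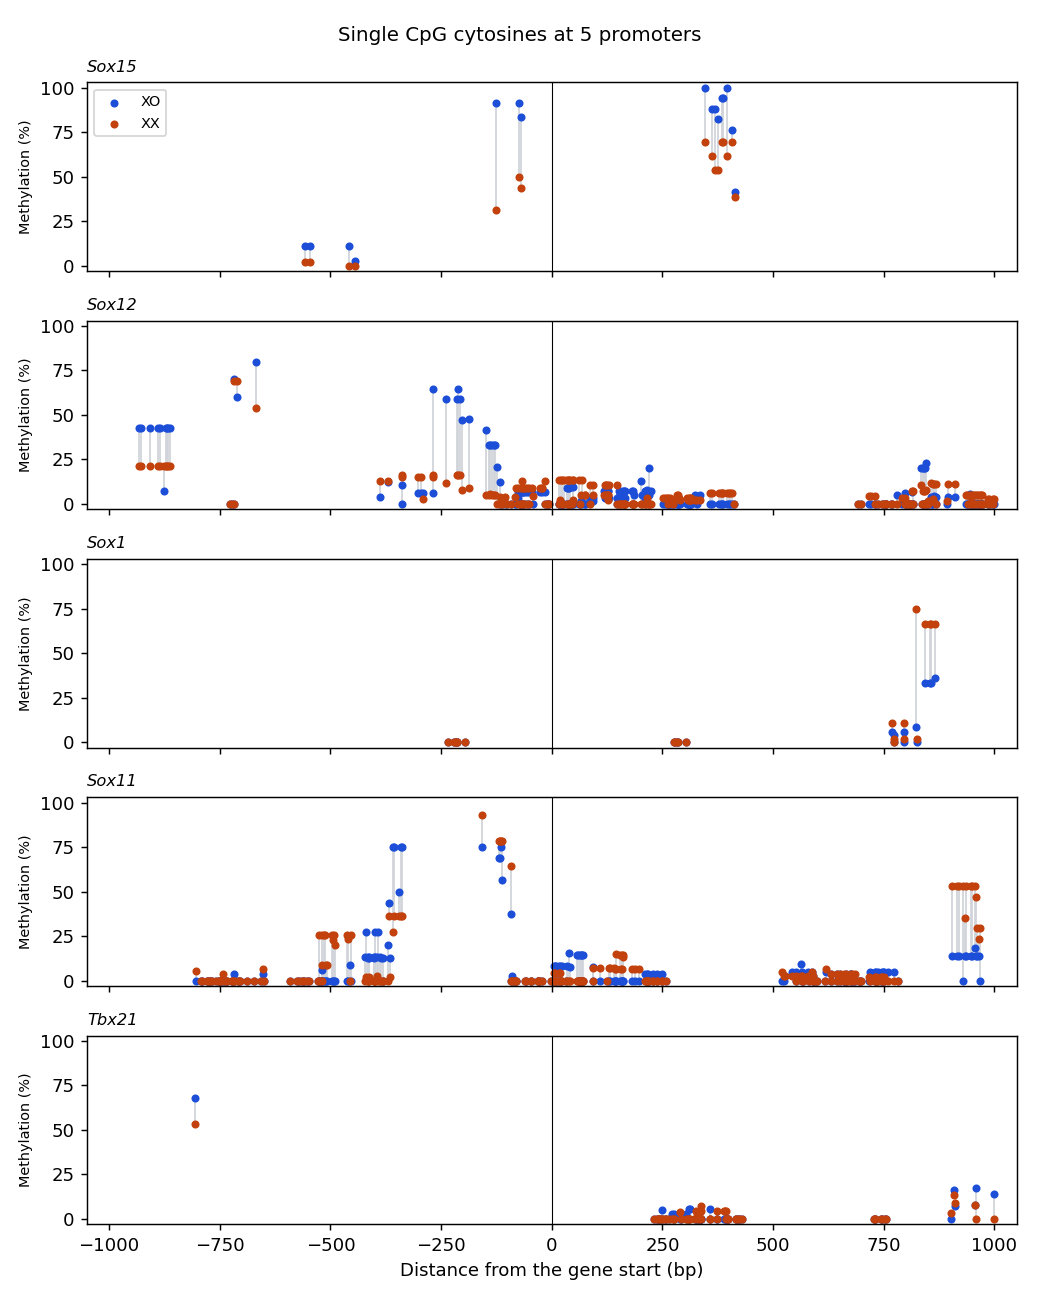
Methylation (%) of every listed CpG cytosine within 1 kb of the start of Sox15, Sox12, Sox1, Sox11 and Tbx21 (distance in bp along the gene, horizontal axis) in XX (orange) and XO (blue), joined by a grey line. Orange lies below blue throughout Sox15, blue stands above orange between -239 and -123 bp at Sox12, orange stands above blue about 900 bp past the start of Sox11 and at the right of Sox1, and most Tbx21 cytosines are near 0%.

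Among promoters with 50 or more cytosines, methylation in XX was lowest at Tbx21 (T-bet, a T helper 1 factor), whereas Nkx6-1 was slightly lower in XO (2.68%). Tbx21 had 2.20% ± 7.30 in XX and 2.74% ± 9.49 in XO over 59 cytosines, a difference of -0.534 points, and 35 of the 59 were at 0% in both libraries. At Sox12 and Sox11 the mean of the promoter hid local structure. The Sox12 promoter (ENSMUSG00000051817.8, chr2:152393611-152398063, reverse strand) had a mean of 5.62% in XX and 7.04% in XO over 256 cytosines, yet 13 neighbouring cytosines from -239 to -123 bp averaged 8.38% ± 5.12 and 43.5% ± 13.6. The Sox11 promoter (ENSMUSG00000063632.6, chr12:27334264-27342574, reverse strand) had a mean of 7.85% in XX and 6.52% in XO over 234 cytosines, yet 10 neighbours from 903 to 958 bp past the start averaged 50.6% ± 5.68 and 12.7% ± 4.69. Both genes belong to the SoxC group of neuronal differentiation factors. The 10 Sox11 cytosines were all on the forward strand and took only 3 distinct values in each library, and none of those CpGs had a listed value on the other strand.

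By family, median promoter methylation was 7.68% in XX and 8.11% in XO over 16 Sox genes, 5.62% and 7.86% over 9 Tbx genes, and 6.09% and 6.26% over 6 Pax genes. It was 12.4% and 16.9% over 5 Gata genes, 8.03% and 5.74% over 6 Lhx genes, and 9.14% and 8.74% over 8 Nkx genes. Gata promoters were thus the most methylated by median in both libraries, and the Lhx promoters were the only family with a median difference above 0 (1.11 points). That sign changed with the strand, the Lhx median being -1.09 points from forward-strand and 2.62 points from reverse-strand cytosines, and the medians of the Sox (-1.95 and 0.689), Pax (-1.95 and 2.09) and Nkx promoters (-2.94 and 0.0980) changed sign as well, while Tbx and Gata medians were below 0 on both. In every family but Pax the promoters spanned a wider range than the 6 family medians did. In XO they ran from Sox4, a SoxC gene, at 2.44% to Sox15 at 66.7%, from Tbx1, a pharyngeal factor, at 0.822% to Tbx5, a forelimb and heart factor, at 30.9%, and from Pax6, the eye regulator, at 2.86% to Pax9, a factor of teeth and pharyngeal pouches, at 11.4%. The Gata promoters ran from 7.79% at Gata5 to 32.8% at Gata4, both cardiac and endodermal factors. Those of the Lhx family ran from 2.98% at Lhx2, which acts in forebrain and eye, to 18.1% at Lhx1, which acts in head and kidney, and those of the Nkx family from 2.68% at Nkx6-1, a beta cell and motor neuron factor, to 62.8% at Nkx2-6. The XX values of the same promoters were 3.44% at Sox4, 3.47% at Tbx1, 31.8% at Tbx5, 3.74% at Pax6, 5.96% at Pax9, 4.70% at Gata5, 29.3% at Gata4, 3.53% at Lhx2, 12.3% at Lhx1 and 5.18% at Nkx6-1.

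In all, 7 promoters could not be described. Sox6, a cartilage and erythroid factor, had 2 listed cytosines near its annotated start, and Tbx19 (pituitary), Pax5 (B cells), Pax8 (thyroid), Pax4 (endocrine pancreas), Lhx3 and Lhx4 (pituitary) had none. Several of the 57 genes have more than 1 annotated start. At 29 of them the starts more than 1 kb from the first could be measured. There the medians were 9.0% in XX and 11.6% in XO with a median difference of -3.07 points, XX being lower at 26 of the 29. Such starts were not read over all protein-coding genes, so this count has no background. They lie within the gene, and XX was lower at 94.2% of all measured gene bodies. The largest differences at the other starts of the 29 genes were at Sox5, a chondrocyte factor (37% in XX and 72.6% in XO over 5 cytosines), Tbx19 (33.9% and 58.1% over 5) and Tbx5 (5.54% and 16.3% over 34).

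Gene bodies were more methylated than promoters and were lower in XX at most loci. The median over 54 gene bodies was 12.3% in XX and 16% in XO, the median difference was -5.12 points, and XX was the lower library at 48 of the 54 (88.9%), where it was at 94.2% of all measured gene bodies. Read on separate strands, the difference had the same sign on both at 43 of 53 gene bodies. Over all 13048 measured protein-coding gene bodies the medians were 26.6% and 42.5% and the median difference was -13.8 points, so these 54 bodies had the lower medians in both libraries and the smaller median difference. In number, 8 of the 54 (14.8%) were at least 10 points lower in XX, where 64.5% of all measured gene bodies were. None was at least 10 points higher, where 0.529% of all were.

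**Figure D3:**
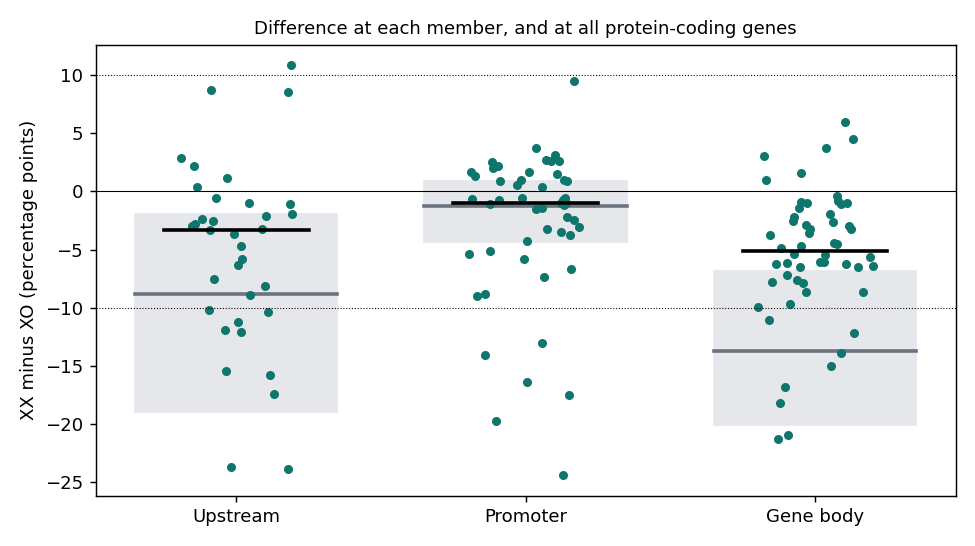
Difference in methylation, XX minus XO in percentage points (vertical axis), of each of the 57 genes (green points) in the upstream stretch, promoter and gene body, with the median of the genes as a black bar; the grey box and bar are the interquartile range and median of all protein-coding genes and the dotted lines mark 10 points either way. The black and grey bars lie together at promoters (-0.97 and -1.28) and apart at gene bodies (-5.12 and -13.8) and upstream stretches (-3.30 and -8.82).

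The 8 gene bodies past 10 points belonged to 5 Sox genes, 2 Tbx genes and Gata5. Sox5 (ENSMUSG00000041540.16, chr6:143828425-144781977, reverse strand) had 33% ± 22.5 in XX and 54.3% ± 24.8 in XO over 369 cytosines, a difference of -21.3 points, the most cytosines of the 8, and XX was lower at 312 of the 369. Sox8 (ENSMUSG00000024176.10, chr17:25565892-25570686, reverse strand), a SoxE factor of testis and glia, had 25.5% ± 18.4 in XX and 46.5% ± 30.8 in XO over 28 cytosines, a difference of -21 points. Its promoter, in contrast, stood at 26% in XX and 23.8% in XO. Tbx19 (ENSMUSG00000026572.11, chr1:165137855-165160773, reverse strand) had 45.7% ± 27.2 in XX and 63.9% ± 27.4 in XO over 15 cytosines, a difference of -18.2 points, and Tbx21 (ENSMUSG00000001444.2, chr11:97098071-97115331, reverse strand) had 15.2% ± 11.7 in XX and 32% ± 26.3 in XO over 51 cytosines, a difference of -16.8 points. Tbx21 thus joined a promoter near 0 to a gene body that differed. Sox7 (ENSMUSG00000063060.6, chr14:63943673-63950732, forward strand), a SoxF factor of endoderm and endothelium, had 38.2% ± 12.5 in XX and 53.3% ± 24.6 in XO over 11 cytosines, a difference of -15 points. Gata5 (ENSMUSG00000015627.5, chr2:180325133-180334699, reverse strand) had 38.3% ± 17 in XX and 50.4% ± 21.5 in XO over 11 cytosines, a difference of -12.2 points, nearly all of it on the forward strand (-21.7 against -0.676 points). The bodies of Sox18 (6.98% ± 6.92 in XX and 20.9% ± 22.4 in XO over 24 cytosines, a difference of -13.9 points) and Sox10 (13.2% ± 19.1 in XX and 24.3% ± 24.7 in XO over 53 cytosines, a difference of -11.1 points) completed the group, and Sox13, a SoxD gene, lay just short of the threshold (-9.98 points).

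Sox5 also held the longest run of neighbouring cytosines that each differed by at least 20 points in the same direction. Its 16 cytosines (chr6:143833450-143834448), near the 3′ end of the gene and 12 of them in a CpG island, averaged 7.02% ± 8.04 in XX and 62% ± 19.5 in XO. They were spread over both strands, 7 forward and 9 reverse. In all, 182 runs of 3 or more cytosines at 48 genes were lower in XX and 44 runs at 32 genes were higher. Of those with 8 or more cytosines, 17 were lower and 1, at Sox11, was higher. Runs were not counted over all genes, so these counts have no background. Over all rows, 22.5% of single cytosines were at least 20 points lower in XX and 3.68% at least 20 points higher. Neighbours are adjacent among the listed cytosines and can lie far apart, as the 10 of a Sox6 run spanned 56702 bp. A run of 9 in a coding exon of Tbx1 stood at 58.6% and 88.9%, but its cytosines were all on the forward strand, took 2 distinct values in each library and had no listed value on the other strand. One of 10 in a coding exon of Pax7 stood at 27.8% and 59.8%. Both are far from the gene start, 3861 and 52627 bp past it.

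Gene bodies that were higher in XX were few and the differences small. They were those of Nkx2-6 (18.8% in XX and 12.8% in XO), Sox14, an interneuron factor (34% in XX and 29.5% in XO), Nkx2-9, a ventral neural tube factor (15.9% in XX and 12.2% in XO), Sox1 (15.3% in XX and 12.3% in XO), Sox4 (9.35% in XX and 7.73% in XO) and Pax9 (14% in XX and 13% in XO). On separate strands, XX was higher on both at Nkx2-9 (5.14 points forward and 2.52 reverse) and Sox4 (2.54 and 0.00893), while Nkx2-6 (13.4 and -1.22), Pax9 (8.44 and -7.59) and Sox1 (-0.115 and 5.12) changed sign, and Sox14 had cytosines on the forward strand alone. Nkx2-6 therefore differed in direction between regions, with its promoter at -19.8 points and its body at 5.96. Sox1 and Sox14 are SoxB genes, and the third of that group, Sox21, stood at 5.88% in XX and 12.1% in XO.

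By family, the median gene body difference was -7.06 points for Sox, -6.44 for Tbx, -5.39 for Pax, -4.40 for Gata, -3.67 for Lhx and -1.99 for Nkx genes. XX was lower at 13 of 16 Sox, 9 of 9 Tbx, 7 of 8 Pax, 5 of 5 Gata, 8 of 8 Lhx and 6 of 8 Nkx bodies. Within the Sox family the median differences were -13.9 points for SoxF (Sox7, Sox17, Sox18), -11.1 for SoxE (Sox8, Sox9, Sox10) and -9.98 for SoxD (Sox5, Sox6, Sox13), against -4.53 for SoxC (Sox4, Sox11, Sox12) and 3.07 for SoxB (Sox1, Sox14, Sox21), with 3 genes in each. Read on each strand alone, all 6 family medians stayed below 0, whereas those of SoxB (-0.115 points forward, 2.21 reverse) and SoxC (0.775 forward, -1.46 reverse) differed in sign between strands. The ranges of the family values overlapped, and with 5 to 16 genes each they are given as a description.

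Much of the body of these genes was itself CpG island. The median share of a body's cytosines that lay in islands was 56.5%, against 0% over all genes, and 10 of the 54 bodies (18.5%) had none there, against 72.0% of all. Read inside islands, the bodies had medians of 8.0% in XX and 8.87% in XO over 43 genes, a median difference of -1.38 points, against -1.29 points for all genes. Outside islands they had 17.2% and 25.4% over 49 genes, a median difference of -8.06 points, and 17 of the 49 (34.7%) were at least 10 points lower in XX. The values for all genes outside islands were 29%, 46%, -15.7 points and 74.8%, so the 49 bodies had the lower medians with islands left out as well. At 5 to 20 kb from the start, 34 genes had medians of 10.6% and 13.8% and a median difference of -5.19 points. Over all genes these were 27.1%, 44.2% and -14.5 points. The values lay closer to those of all genes beyond 20 kb, a class that only genes longer than 20 kb enter. Beyond 20 kb from the start, 17 of the 57 genes could be measured, with medians of 29.95% and 43% and a median difference of -12.9 points, against 30.2%, 48.9% and -16.9 points over all genes.

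Inside and outside islands could be compared within the same locus at 54 genes, upstream stretch included. Medians were 7.40% in XX and 7.80% in XO inside islands and 16.4% and 24.8% outside, and the difference was the more negative outside islands at 44 of the 54 (81.5%). Over all 11232 protein-coding genes that could be compared in this way the share was 88% and the median difference outside islands -12.2 points, against -6.44 at the 54 loci. Lhx3 stood at 2.36% and 6.64% over 114 island cytosines and at 39.5% and 61.8% over 16 others. Gata5 stood at 3.77% and 5.21% inside and 31.3% and 51% outside, and Sox6 at 7.26% and 7.24% inside and 30.1% and 45.4% outside. At these 3 genes the libraries were close to each other within islands and apart beyond them. Exceptions in level were Pax8, with 58.1% and 60% over 10 island cytosines in its body, and Sox15, with 60.7% and 85% over 9. At Sox15 the difference was -24.3 points inside islands and -19.1 points outside. When the cytosines of the gene bodies outside islands were pooled, the difference was -9.97 points in introns, -11.5 in coding exons and -9.43 in untranslated regions, and inside islands it was -1.14 points in introns and -1.55 in coding exons.

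The level of a CpG in XO and its difference moved together. When CpGs of the loci with both strands listed were sorted by their XO level on the forward strand and then read on the reverse strand, those under 10% averaged 3.52% in XX and 4.29% in XO. Those at 10 to 30% averaged 6.64% and 10.9%, those at 30 to 60% averaged 18.6% and 32.6%, and those at 60% or more averaged 30.1% and 49.6%. The ratio of XX to XO was 0.820, 0.609, 0.571 and 0.608 in these classes, against 0.768, 0.580, 0.543 and 0.613 over all such CpGs in the table. The differences were -0.772, -4.27, -14 and -19.5 points at the loci, each smaller than the -0.952, -6.37, -18.6 and -23.2 points over all such CpGs. The classes were not equal in level, however. On the reverse strand all such CpGs averaged 4.11%, 15.2%, 40.6% and 60% in XO, more than the loci in each class from 10% up. The smaller differences are therefore not differences at the same XO level. Of the CpGs at the loci, 76.1% were under 10% against 68.3% over the table, and 2.15% were at 60% or more against 6.71%.

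Upstream stretches could be measured at 35 genes and were the region that varied most from gene to gene (SD of the difference 8.08 points, against 6.57 at promoters and 5.83 in gene bodies). Over all protein-coding genes these SDs were 11.9, 7.20 and 9.57 points, so the upstream SD was the largest there too. The upstream values of the 35 genes also rested on fewer cytosines (1018, against 3427 at promoters and 7545 in gene bodies). The upstream medians were 12% in XX and 20.2% in XO, with a median difference of -3.30 points. XX was lower at 28 of the 35 stretches (80%), where it was at 83.3% of all. Over all 4185 measured upstream stretches of protein-coding genes the medians were 20.2% and 31.8% and the median difference was -8.82 points. In number, 10 of the 35 (28.6%) were at least 10 points lower in XX, where 46.8% of all were, and 1 (2.86%) was at least 10 points higher, where 1.94% of all were. The largest differences rested on few cytosines. Sox11 had 5.01% ± 5.85 in XX and 28.9% ± 30.8 in XO over 5 cytosines, a difference of -23.9 points, and Tbx21 had 37% ± 17.6 in XX and 60.7% ± 12.6 in XO over 6 cytosines, a difference of -23.7 points. At Sox11 the difference was -6.36 points when the median of its 5 cytosines was taken. Sox8 had 48.6% ± 15.4 in XX and 66.1% ± 13.1 in XO over 8 cytosines, a difference of -17.5 points, Tbx5 (ENSMUSG00000018263.11, chr5:119832668-119885219, forward strand) had 17.6% ± 26.5 in XX and 33.4% ± 22.2 in XO over 10 cytosines, a difference of -15.8 points, and Sox10 had 24.8% ± 11.8 in XX and 40.3% ± 8.85 in XO over 6 cytosines, a difference of -15.4 points.

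More cytosines lay behind the values of Pax3 and Nkx6-1. Pax3 (ENSMUSG00000004872.15, chr1:78101267-78197134, reverse strand), a neural crest and muscle factor, had 15% ± 15.2 in XX and 25.2% ± 22 in XO over 53 cytosines, a difference of -10.2 points. Nkx6-1 (ENSMUSG00000035187.10, chr5:101658139-101664996, reverse strand) had 12% ± 11.2 in XX and 22.3% ± 19.8 in XO over 58 cytosines, a difference of -10.3 points. The strands of both genes were lower in XX when read apart. Pax2 (-11.9 points over 23 cytosines), Tbx18, an epicardial and sinus node factor (-12.1 over 18), and Nkx2-3, a factor of spleen and gut (-11.2 over 8), were the remaining 3 of the 10. Of the 4 among the 10 with at least 5 cytosines on each strand, all 4 were lower in XX on both. The single stretch past 10 points in the other direction belonged to Nkx2-2, a ventral spinal cord and islet factor (ENSMUSG00000027434.11, chr2:147177546-147194243, reverse strand), with 57% ± 35 in XX and 46.2% ± 26 in XO over 10 cytosines, a difference of 10.9 points. Over the whole 5 kb before the start, its difference was 1.36 points, and 7 of the 10 lower stretches no longer passed 10 points either, with -1.71 at Sox11, -1.87 at Sox8, -2.22 at Tbx5, -6.10 at Pax2, -6.16 at Nkx2-3, -8.06 at Nkx6-1 and -9.03 at Pax3. Other genes passed over the whole 5 kb, where 8 of 49 measured genes were at least 10 points lower. That window takes in the 1 kb next to the start. No share over all genes is given for it, so this count has no background. After Nkx2-2, the largest differences above 0 in the 5 to 1 kb stretch were at Pax4 (61.2% in XX and 52.5% in XO over 8 cytosines) and Sox14 (55.3% in XX and 46.8% in XO over 10). At Tbx1, with 39 upstream cytosines, both libraries were near 0 (3.22% in XX and 0.354% in XO).

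In total, 19 of the 57 genes (33.3%) had at least 1 region 10 or more points lower in XX, where 59.8% of the 16963 protein-coding genes with a measured region did. More than 1 such region was found at 4 genes (7.02%), where 8.69% of all had it. With all 3 regions measured, the shares were 12 of 31 (38.7%) against 74.9% for any region and 3 of 31 (9.68%) against 31.3% for more than 1. Sox10 had all 3 (1 of 31, where 2.09% of all did), with -15.4 points upstream, -16.4 at the promoter and -11.1 in the body. Sox18 had its promoter and body past 10 points, and Sox8 and Tbx21 had their upstream stretch and body past 10 points on either side of a promoter that differed by 2.15 and -0.534 points. Of the 31 genes with all 3 regions measured, 12 (38.7%) were lower in XX in every region, where 50.6% of all such genes were, and 0 were higher in every region.

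Around the gene start the 57 genes formed a shallow trough in both libraries. In the first 500 bp of the gene, 40 genes averaged 8.10% in XX and 10.8% in XO, against 9.80% and 12.1% over all protein-coding genes. In the bin from 500 to 1000 bp, 36 genes averaged 12% and 12.9%, where the libraries were closest. At the far upstream end, from 5 to 4.5 kb before the start, 11 genes averaged 12.7% and 23.4%, against 24.7% and 36.1% over all genes. XX was below XO in all 20 bins of 500 bp, at the 57 genes and over all protein-coding genes alike. Past 2.5 kb into the gene the averages of the 57 genes in XO stayed between 16.7% and 29.7%, and each bin rests on 8 to 40 genes.

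**Figure D4:**
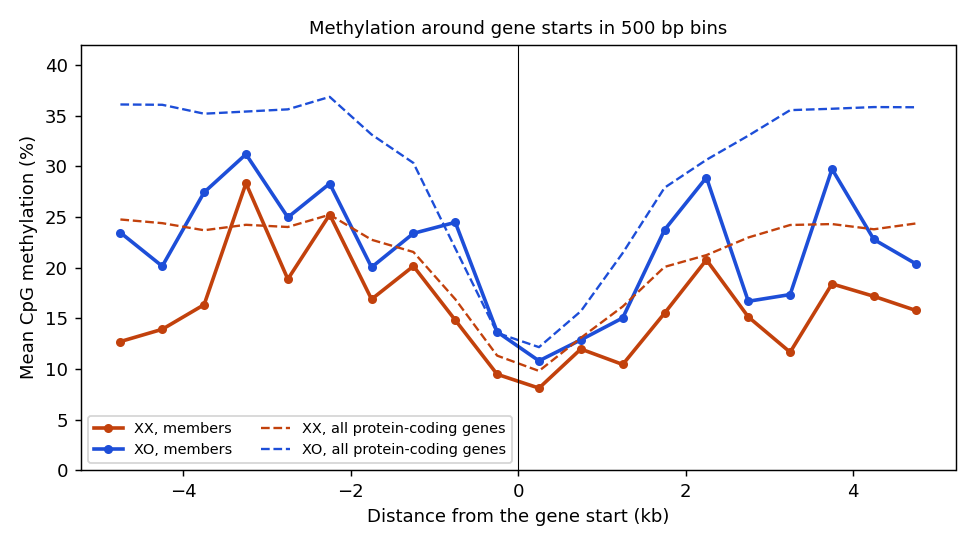
Mean CpG methylation (%, vertical axis) in 500 bp bins from 5 kb before to 5 kb after the gene start (kb, horizontal axis), averaged over the Sox, Tbx, Pax, Gata, Lhx and Nkx genes with at least 3 cytosines in the bin (solid lines with points) and over all protein-coding genes (dashed lines), in XX (orange) and XO (blue). Both pairs of lines dip at the start, and away from it the solid blue line lies below the dashed blue line in most bins.

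Other lists of genes were read in the same way. Of 20 relatives in the same families or close to them (such as Sox2, Eomes, T and Isl1), 15 promoters were measured, their medians were 6.74% in XX and 6.93% in XO, and none differed by 10 points. Their gene bodies had medians of 13.6% and 19.1% over 18 genes, and 6 of those were at least 10 points lower in XX, where 64.5% of all measured gene bodies were. Sox3, Tbx22 and Gata1 of this list are X-linked, and the bodies of Tbx22 (-19.5 points) and Gata1 (-18.4 points) were among the 6. Of 16 genes for Polycomb and trithorax proteins, which set the histone marks of bivalent promoters, all 16 promoters were measured (X-linked Kdm6a included), with medians of 6.57% and 6.77%. Past 10 points were Cbx7, a Polycomb subunit (50.9% in XX and 69.5% in XO over 8 cytosines), and Pcgf6, which belongs to a variant Polycomb complex (8.24% and 26.5% over 49).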

How the data were processed

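RRBS libraries of FACS-sorted XX and XO Xmas mESCs (1 each) were prepared by the authors. Per the submitters' processing notes, bcl2fastq and Bismark were used with mm10; versions and any coverage minimum are not given in the sources used here. The authors deposited the percent of methylated reads at each CpG cytosine, strands listed separately, and 890585 positions were a forward-strand and 892094 a reverse-strand CpG cytosine of GRCm38, with 51 on no CpG.

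The values were used without filtering or scaling. Genes came from GENCODE M21. A region's value is the unweighted mean of its cytosines (at least 5), and 10 points was the threshold. CpG islands (15782) were called on repeat-masked GRCm38 by a running score of 17 per CpG and -1 per other base (over 200 bp, GC of at least 50%, observed to expected CpGs above 0.6). The genes, lists and thresholds were chosen with earlier results of these data known. Genes were named if a region passed 10 points, if they had the lowest or highest XO promoter of their family, among the 5 widest island stretches or the longest runs, or if unmeasured; others beside them were chosen after their values were seen. Sequences in untranslated regions were not printed. The region code was tested on simulated data. The tools were pandas 2.3.3, numpy 2.4.6, matplotlib 3.10.9 and numba 0.67.0 in Python 3.11.15. Alternatives are given in the closing section.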

Additional observations from a re-analysis of the deposited data

How the results depend on the processing

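With 1 library of each karyotype and unknown read depth, no alternative tests whether a difference would recur, so 1.5 times the value was taken as the limit of a small change. The 7 summaries (3 median differences and 4 counts) were recalculated 98 times, with 62 of the values within that limit. The median promoter difference was 0.447 points from the reverse strand alone, of opposite sign, and -1.52 without cytosines at 0% or 100% in both libraries, -0.275 from medians over cytosines, -3.62 outside and -0.290 inside islands, -1.96 within 2 kb and -2.11 over every annotated start. The gene body median was -3.39 from medians over cytosines, -8.06 outside and -1.38 inside islands. The upstream median was -7.01 from the reverse strand and -5.81 without cytosines in other genes. The counts in this paragraph are not set beside shares of all genes, and the number of regions measured changed with the setting. Lower promoters numbered 10 of 36 outside and 2 of 36 inside islands, and 13 and 1 of 50 at 5 and 20 points. Lower gene bodies numbered 17 of 49, 2 of 43, and 27 and 2 of 54 in these settings. Lower upstream stretches numbered 5 of 27 with at least 10 cytosines and 6 of 35 from medians. They numbered 3 of 26 on the forward and 5 of 27 on the reverse strand. Inside islands the number was 0 of 6, and at 20 points it was 2 of 35. Genes with a region at least 10 points higher numbered 2 with at least 3 cytosines, 2 without cytosines at 0% or 100% in both, 2 with strands averaged, 4 on the forward strand, 3 from medians, 3 inside islands, 0 over the whole 5 kb, 0 without cytosines in other genes, 5 at 5 points and 0 at 20. The 25 single regions past 10 points were recalculated 244 times: 212 stayed past it, 32 did not and 0 changed sign. Some settings left a region's cytosines unchanged, so its value could not move. Regions that fell under the cytosine minimum in a setting were left out. The 212 is therefore no measure of how stable the regions were. The causes were not tested. No paired analysis was possible because each karyotype has 1 library.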
